A study of Mus musculus with 48 samples.

Results

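The 10 genes described here encode receptors for extracellular nucleotides and adenosine and the surface enzymes that turn the first into the second. They were chosen by name, as *P2rx4*, *P2rx7*, *P2ry1*, *P2ry2*, *P2ry6*, *Adora1*, *Adora2a*, *Adora3*, *Entpd1* and *Nt5e*, and all 10 were present among the 24973 genes of the expression table. RNA had been sequenced from 4 cell types of the neurovascular unit, which were sorted from the cerebra of male wild type mice aged 12 to 15 weeks. All animals had undergone transient occlusion of the right middle cerebral artery for 1 h followed by 23 h of reperfusion. The ipsilateral hemisphere was the ischemic one, and the contralateral hemisphere of the same animals served as control in place of sham-operated mice, so that no group came from an animal without a stroke. Each of the 6 replicates per group was a pool of 3 to 4 mice, and animals that died early or scored low on the neurological scale had been left out by the study, so the pools represent survivors with moderate to severe deficits. Microglia (MG) were gated as cells with low CD45 and with CD11b, a gate that other myeloid cells can enter. Cells without CD45 gave astrocytes (AC) by high ACSA2, endothelial cells (EC) by VE-cadherin and pericytes (PC) by NG2 with PDGFRβ.

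Cells release ATP when they are damaged or strongly stimulated, and in the extracellular space it acts on ligand-gated P2X channels and on G protein-coupled P2Y receptors. The ectonucleotidase CD39 (*Entpd1*) removes phosphates from ATP and ADP to give AMP, and CD73 (*Nt5e*) converts AMP into adenosine, which acts on a family of receptors of its own. In the brain this chain is known for guiding microglial processes to injured tissue, for inflammasome activation through P2X7, for the control of vessel tone and for dampening neuronal activity through A1 receptors.

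The promoter sequences of *P2rx7*, *P2ry2* and *Entpd1* are shown because these are the 3 genes whose RNA changed with stroke in microglia. They are the bases before a transcription start in RefSeq (assembly GRCm38.p6), written 5′ to 3′ on the strand of the gene and without annotated exon bases, and capitals mark matches to any of 3 motifs on either strand: ACGTG (the hypoxia response core), TGANTCA (the AP-1 motif) and GAGGAA (the core bound by PU.1, a factor of myeloid cells).
P2rx7, chr5:122643677-122643910, plus strand: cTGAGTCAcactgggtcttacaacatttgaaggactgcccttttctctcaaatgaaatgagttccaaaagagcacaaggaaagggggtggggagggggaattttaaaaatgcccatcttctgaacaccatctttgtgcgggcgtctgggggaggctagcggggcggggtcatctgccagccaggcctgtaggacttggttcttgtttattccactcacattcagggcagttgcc
P2ry2, chr7:101012054-101012303, minus strand: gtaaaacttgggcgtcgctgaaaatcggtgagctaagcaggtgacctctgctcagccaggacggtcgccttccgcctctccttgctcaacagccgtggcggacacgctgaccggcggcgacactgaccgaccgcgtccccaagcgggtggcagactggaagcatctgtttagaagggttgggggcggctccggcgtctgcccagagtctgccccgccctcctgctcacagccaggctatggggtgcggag
Entpd1, chr19:40659520-40659769, plus strand, before a start inside the gene: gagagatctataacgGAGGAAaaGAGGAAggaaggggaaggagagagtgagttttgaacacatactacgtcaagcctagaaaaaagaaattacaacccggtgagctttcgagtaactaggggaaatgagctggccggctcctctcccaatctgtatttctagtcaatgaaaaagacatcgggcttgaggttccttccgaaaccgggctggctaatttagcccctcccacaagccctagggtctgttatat
The *P2rx7* window held 1 match to TGANTCA, the *Entpd1* window held 2 matches to GAGGAA, and the *P2ry2* window held none of these letters, with no match overlapping one of another motif. Each of these 3 genes had a second window in the table, and the printed ones were chosen with the matches known. The other *P2ry2* window, which overlaps the printed one, held 2 matches to ACGTG, both within its 39 annotated exon bases. The expression table ends *P2ry2* at base 101012037, whereas GENCODE M21 ends it at 101012866. By the latter, the printed *P2ry2* window also lies inside the gene. The other windows of *P2rx7* and *Entpd1* held none of the 3 motifs. Among 32817 promoter windows of 250 bases in the same table, 16.6% contained ACGTG, 6.75% TGANTCA and 23.3% GAGGAA. The table held windows for 8 of the 10 genes, 12 windows in all, of which 2 contained ACGTG, 3 TGANTCA and 2 GAGGAA. These counts and shares include exon bases. Such a match describes letters only. *P2ry6* and *Adora2a* are named here without a promoter sequence.

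The 48 libraries carried normalized counts that summed to between 10549900 and 16942165, and from the steps between low values, between 5000000 and 17100000 reads per library lay on genes. The floor of detection for counting error, 3 reads, was at most 7.1 normalized counts, so the levels of under 10 that several genes showed lie near it. For 12 ipsilateral libraries of PC and MG the sample titles and the column names gave opposite cell types, and the column names were followed. With these, 16 of 16 defining markers (4 per cell type) were higher in every library of their own cell type than in any other library. The amount of microglial RNA outside MG varied with the pool: the sum of 10 microglial genes reached 0.19% to 19.4% of its level in MG in the EC, PC and AC libraries of replicates 1 to 4, and 0.0785% to 0.518% in those of replicates 5 and 6. As the samples are bulk RNA, fewer cells of a type and less RNA per cell cannot be told apart.

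Each of the 10 genes had a cell type in which it was highest on the contralateral side, and microglia took that place for 5 of them. The contrasts between contralateral groups were tested with limma in a fit of all 48 libraries, in which all 10 genes passed the filter on low values. A gene was called different at an adjusted p of at most 0.05, a difference of at least 1.5-fold and more than 10 normalized counts in all 6 libraries of a group. By this rule 4 of the 10 genes differed between EC and PC, where 30.6% of all genes did, 5 between EC and AC (44.1% of all genes), 7 between EC and MG (37.8%), 5 between PC and AC (40.8%), 7 between PC and MG (42.9%) and 9 between AC and MG (46.3%).

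**Figure D1:**
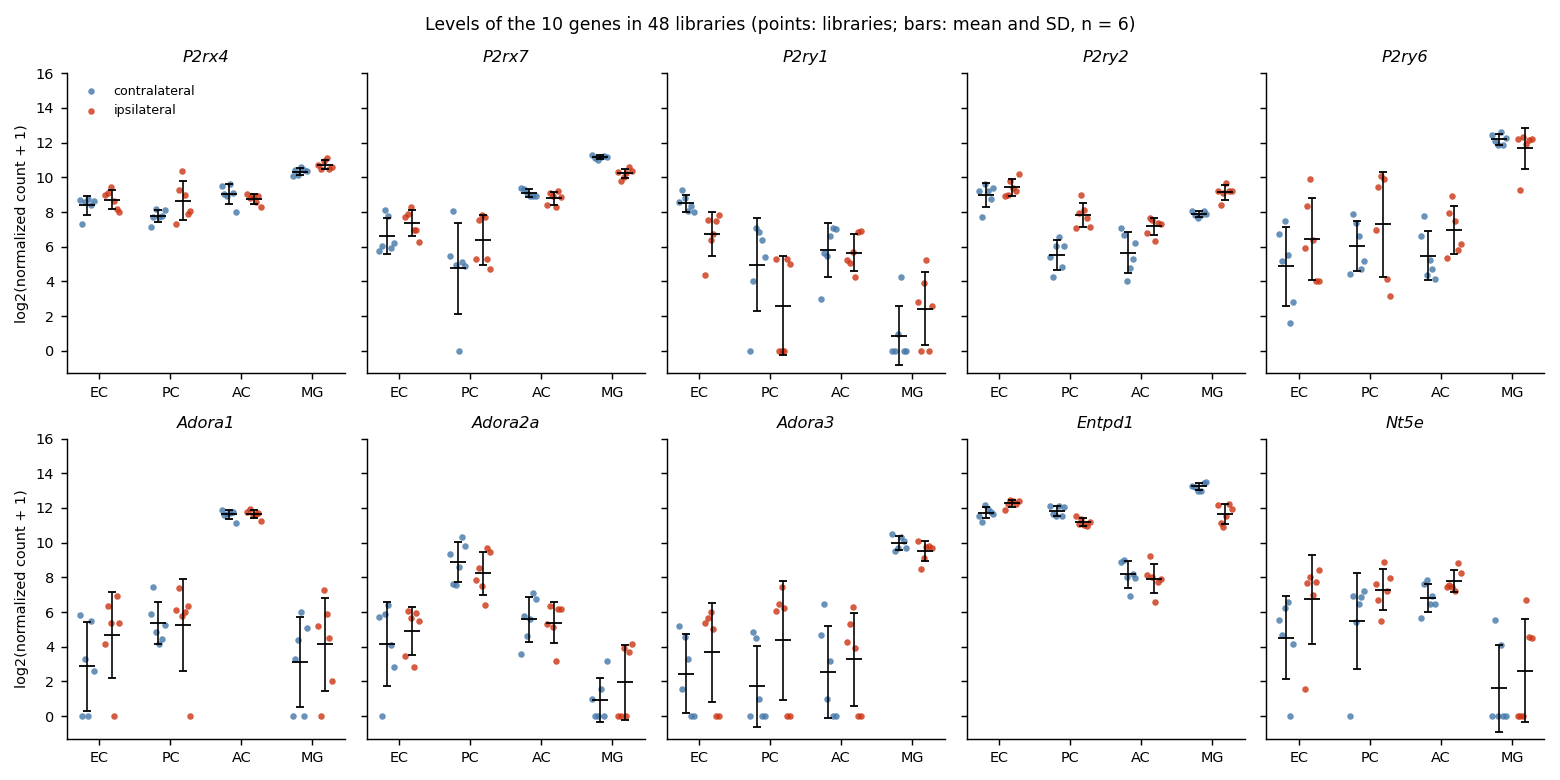
Levels of the 10 genes in all 48 libraries, as log2(normalized count + 1), by cell type (EC, endothelial cells; PC, pericytes; AC, astrocytes; MG, microglia) and hemisphere, with the mean and SD of 6 libraries. *P2ry6* and *Adora3* stood highest in MG, *Adora1* in AC and *Adora2a* in PC, and *Entpd1* lay lower in ipsilateral than in contralateral MG.

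The P2X channels were microglial in their order of levels. *P2rx4* (chr5:122707544-122729738), an ATP-gated cation channel of endosomes and the plasma membrane, ranged from 1064 to 1561 normalized counts in contralateral MG (median 1329.5), from 260 to 777 in AC, from 158 to 430 in EC and from 141 to 285 in PC. The step from MG to AC was larger than the spread between libraries (log2 difference 1.29, standard error 0.32, limma adjusted p = 0.000646), whereas AC and EC (adjusted p = 0.0905) and EC and PC (adjusted p = 0.128) did not pass the threshold as neighbours. *P2rx7* (chr5:122643911-122691432), the channel that opens at high ATP and triggers the NLRP3 inflammasome, lies 16111 bases from *P2rx4* on the same strand. It ranged from 2076 to 2546 in contralateral MG, from 480 to 669 in AC, from 52 to 278 in EC and from 0 to 270 in PC. All 3 neighbouring steps passed limma's test. MG lay over AC by 2.08 on the log2 scale (adjusted p = 0.00599) and AC over EC by 2.45 (adjusted p = 0.00139). EC lay over PC by 1.88 (adjusted p = 0.0195), although the ranges of EC and PC overlapped. The means of EC and PC were 124.5 and 67.8, and PC replicate 4 was at 0. The part of microglial RNA in the EC and PC values of *P2rx7* was not tested.

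Among the P2Y receptors, *P2ry1* and *P2ry2* were endothelial and *P2ry6* was microglial. *P2ry1* (chr3:61002795-61008982), an ADP receptor that raises intracellular calcium, ranged from 258 to 626 normalized counts in contralateral EC, from 7 to 135 in AC and from 0 to 135 in PC, and was at 0 in 4 of 6 MG libraries. EC exceeded AC without overlap (log2 difference 2.69, standard error 1.06, adjusted p = 0.0308), and AC and PC were not told apart (0.86, 95% interval -1.27 to 2.99). Of the exon bases of *P2ry1*, 23.1% are shared with the antisense gene *Gm37035*, and reads overlapping several genes had not been counted. *P2ry2* (chr7:100996568-101012037), a receptor for ATP and UTP, ranged from 210 to 771 in EC, from 202 to 271 in MG, from 15 to 135 in AC and from 18 to 92 in PC. The order of EC over MG (1.08, adjusted p = 0.0263) and MG over AC (2.23, adjusted p = 6.75e-06) passed the test, and AC and PC did not differ beyond their spread (0.14, 95% interval -0.67 to 0.95). *P2ry6* (chr7:100937630-100964391), the UDP receptor that drives microglial phagocytosis, lies 32176 bases from *P2ry2*. It ranged from 3702 to 6274 in contralateral MG and reached at most 234 in any contralateral library of the other cell types, with MG over PC by 6.17 on the log2 scale (standard error 1.02, adjusted p = 1.83e-06).

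The 3 adenosine receptor genes were each highest in the libraries of a different cell type. *Adora1* (chr1:134199223-134235431), which encodes the inhibitory A1 receptor, ranged from 2266 to 3791 normalized counts in contralateral AC and reached at most 176 elsewhere (AC over PC by 6.28 on the log2 scale, standard error 1.16, adjusted p = 1.55e-05). The AC libraries also carried oligodendrocyte RNA, with *Mbp*, a myelin gene, at 6523 to 57729 and *Mog*, another, at 1108 to 14573 on the contralateral side, beside the astrocyte genes *Slc1a3* at 44740 to 78661 and *Aqp4* at 5623 to 15696. The part of oligodendrocyte RNA in the level of *Adora1* was not tested. *Adora2a* (chr10:75316877-75334784), encoding a receptor that relaxes vessels through cyclic AMP, was highest in PC with a wide spread, from 190 to 1268 in contralateral PC, against 11 to 135 in AC, 0 to 83 in EC and 0 to 8 in MG. PC lay above AC in every library (3.29, standard error 0.91, adjusted p = 0.00245). Its highest contralateral values, 1268 and 899, belonged to replicates 5 and 6. The PC libraries carried 3 smooth muscle genes (*Acta2*, *Myh11* and *Tagln*) at a summed 304156 to 458465 on the contralateral side, above the 4 pericyte markers at 44294 to 92716, and their part in the level of *Adora2a* was not tested. *Adora3* (chr3:105870858-105908926), the A3 receptor, ranged from 734 to 1442 in contralateral MG and no more than 86 elsewhere (MG over AC by 7.42, standard error 1.33, adjusted p = 6.64e-06). Its exons share 20.9% of their bases with *Tmigd3* and those of *Adora1* share 20.1% with *Mybph*.

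The ectoenzymes differed in abundance. *Entpd1* (chr19:40612397-40741602) ranged from 8085 to 11764 normalized counts in contralateral MG, from 2953 to 4513 in PC, from 2376 to 4631 in EC and from 119 to 514 in AC. MG stood above PC without overlap (log2 difference 1.41, standard error 0.28, adjusted p = 3.71e-05). PC and EC were not told apart (0.11, 95% interval -0.45 to 0.67), and EC exceeded AC by 3.55 (standard error 0.28, adjusted p = 2e-14). *Nt5e* (chr9:88327197-88372092) was low everywhere, from 50 to 226 in AC, from 0 to 150 in PC, from 0 to 95 in EC and at 0 in 4 of 6 MG libraries. The neighbouring steps of *Nt5e* down to EC did not pass the test (AC over PC with adjusted p = 0.381, PC over EC with a 95% interval of -1.48 to 3.40), and the step from EC to MG (adjusted p = 0.0469) missed the rule because neither group exceeded 10 in all libraries. Per kilobase of exon, *Entpd1* was the most abundant of the 10 genes in contralateral MG (1748 normalized counts per kb), PC (665) and EC (619), followed in MG by *P2ry6* (1654), in PC by *Adora2a* (195) and in EC by *P2ry2* (138). In AC the first place belonged to *Adora1* (554), with *Entpd1* at 57.0 and *Nt5e* at 14.9 per kb.

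To learn which of these genes changed with the stroke, the hemispheres were set against each other separately in EC, PC, AC and MG. This was done with limma and the same thresholds, on the scale log2(normalized count + 1). The added 1 makes ratios of low values smaller, whereas a single library at 0 can make the mean change of a low gene large. For *P2rx7* in PC, replicate 4 went from 0 to 209, which is 7.71 on this scale. In MG, 3 of the 8 genes tested were regulated, *P2ry2* upwards and *P2rx7* and *Entpd1* downwards, where 10.6% of all 13300 genes tested were regulated, 4.29% upwards and 6.27% downwards. *P2ry1* and *Adora2a* were too low in MG to be tested. In PC 1 of 10 genes was regulated, *P2ry2* upwards, where 1.02% of all genes were, 0.441% upwards and 0.581% downwards. In EC and AC none of the 10 passed limma's test, where 0.491% and 0.341% of all genes did, and 2 genes in each had an unadjusted p under 0.05 (*P2ry1* and *Entpd1* in EC, where 11.9% of all genes had one, and *P2ry2* and *Nt5e* in AC, where 9.28% did). The median log2 fold change of the genes tested was 0.73 in EC, 1.08 in PC, -0.06 in AC and -0.04 in MG, and that of all genes tested was -0.03, -0.04, -0.06 and -0.18. With the pool of mice as a block the same 4 results were called, where 0.551% of all genes in EC, 1.66% in PC, 1.59% in AC and 11.0% in MG were. Several of the 10 lie near the floor in EC and PC, where single libraries set the fold change.

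**Figure D2:**
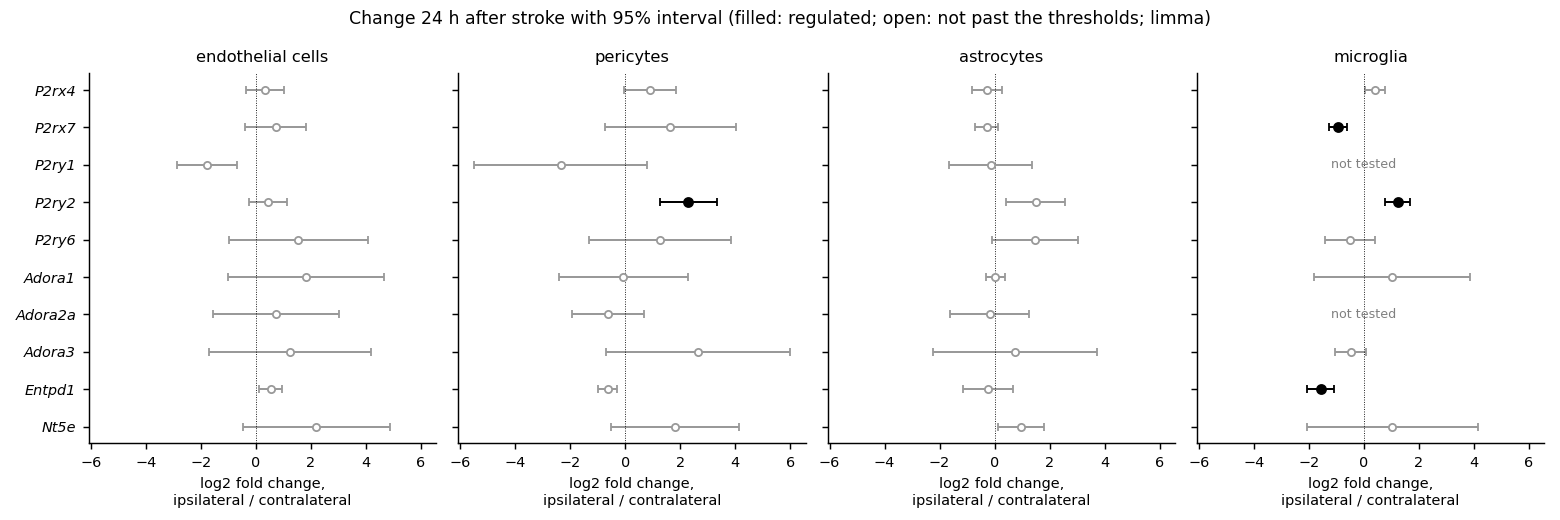
Log2 fold change between ipsilateral and contralateral libraries (6 of each) for the 10 genes in 4 cell types, with 95% intervals from limma. Filled points mark the 4 regulated results, *P2ry2* in PC and *P2rx7*, *P2ry2* and *Entpd1* in MG, and wide intervals belong to genes with low counts.

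*P2rx7* fell in microglia. It ranged from 2076 through a median of 2301.5 to 2546 normalized counts on the contralateral side and from 902 through 1240.5 to 1537 on the ipsilateral side. Every ipsilateral library lay below every contralateral one, and 8.56% of all genes tested in MG were separated in this way. The mean fell from 2312 ± 158 to 1216 ± 219 (SD, n = 6 each), by limma -0.94 on the log2 scale (standard error 0.15, adjusted p = 0.00167), with all 6 pools lower. The ipsilateral mean was 52.6% of the contralateral one. In the same libraries the median sum of the 4 microglial markers stood at 53.9% of the contralateral one (180699 to 227678 against 91419 to 163197). The 4 did not move alike. The means of *Csf1r* (137087 to 70185), *Tmem119* (52775 to 19871) and *Aif1* (4479 to 3652) fell, and that of *Cd68* rose (19195 to 27664). The median sum of 4 neutrophil genes stood at 778%. The part of both in the *P2rx7* values was not tested. In a joint fit of all 48 libraries, which gives all cell types 1 estimate of spread, the same change was not called (adjusted p = 0.443). In AC, the other cell type with a clear level, *P2rx7* stood at 480 to 669 on the contralateral and 309 to 585 on the ipsilateral side, ranges that overlapped (-0.29, 95% interval -0.71 to 0.12, adjusted p = 0.698). In EC it ranged from 52 to 278 and from 78 to 310 (0.72, adjusted p = 0.631), and in PC from 0 to 270 and from 25 to 230 (1.64, adjusted p = 0.507).

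The neighbouring channel gene *P2rx4* was not called in MG. It ranged from 1064 to 1561 contralaterally (median 1329.5) and from 1412 to 2243 ipsilaterally (median 1608.5), higher in all 6 pools, with overlapping groups and no call (log2 fold change 0.40, standard error 0.16, adjusted p = 0.123). In PC, ipsilateral values of 620, 1345 and 502 in replicates 2, 3 and 4 stood above the contralateral range of 141 to 285, whereas replicates 1, 5 and 6 were at 160, 237 and 269 (0.89, adjusted p = 0.351). Those 3 libraries also held the most microglial RNA among PC, at 10.6%, 19.4% and 16.8% of the level in MG, and its part in the *P2rx4* values was not tested. In AC *P2rx4* had a median of 532.5 contralaterally and 467.5 ipsilaterally, and in EC of 388 and 453.5, with overlap and no call in either (adjusted p = 0.803 and 0.759).

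*P2ry2* rose in both microglia and pericytes. In MG it ranged from 202 through 235.5 to 271 normalized counts contralaterally and from 334 through 590.5 to 816 ipsilaterally, groups that did not overlap and that went up in all 6 pools. The mean rose from 239 ± 26.3 to 578 ± 154 (SD, n = 6 each), by limma 1.23 on the log2 scale (standard error 0.22, adjusted p = 0.00287). The joint fit left this just short of the threshold (adjusted p = 0.0555). In PC it ranged from 18 through 53.5 to 92 contralaterally and from 136 through 221.5 to 512 ipsilaterally, again without overlap, as for 1.93% of all genes tested in PC. The log2 fold change in PC was 2.30 (standard error 0.48, adjusted p = 0.0386), from 51.7 ± 27.5 to 252 ± 139. This call rests on all 6 pools together, since leaving out any 1 of them put the adjusted p between 0.0713 and 0.12 with log2 fold changes of 2.03 to 2.54, and in a joint fit of 48 libraries it was 0.000713.

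The ipsilateral pericyte libraries also differed in their RNA of other cells. At the share of microglial RNA found in each of them, the microglial level of *P2ry2* would amount to 22.7, 61.3, 112, 97.3, 1.02 and 0.788 normalized counts in replicates 1 to 6, and the measured values were 136, 241, 512, 278, 202 and 141. In replicates 5 and 6, where that share was under 0.2%, *P2ry2* went from 28 to 202 and from 65 to 141 (log2 fold change 1.96 with these pools alone, adjusted p = 0.159). The 4 endothelial markers summed to 792 to 3027 in contralateral and 1263 to 6219 in ipsilateral PC against 50747 to 80091 in ipsilateral EC, and 4 neutrophil genes (*S100a8*, *S100a9*, *Ly6g* and *Retnlg*) to 0 to 1113 and 26 to 11623. In MG the same neutrophil genes summed to 59 to 896 contralaterally and 1221 to 17722 ipsilaterally. The 3 monocyte genes (*Ccr2*, *Ly6c2* and *Plac8*) summed to 0 to 33 contralaterally and 11 to 794 ipsilaterally in PC, and to 51 to 148 and 127 to 521 in MG. The part of endothelial, neutrophil and monocyte RNA in the *P2ry2* values was not tested.

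In AC and EC *P2ry2* was not called. In AC it ranged from 15 to 135 contralaterally and from 79 to 197 ipsilaterally, higher in 5 of 6 pools (95% interval of the log2 fold change 0.43 to 2.57, adjusted p = 0.371), and its mean was at 232% of the contralateral one. In EC, its cell type of highest level, it ranged from 210 to 771 and from 480 to 1166 (0.44, 95% interval -0.26 to 1.15, adjusted p = 0.651). The difference between the changes in PC and EC was not called either (log2 difference of EC minus PC -1.86, standard error 0.57, adjusted p = 0.28).

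**Figure D3:**
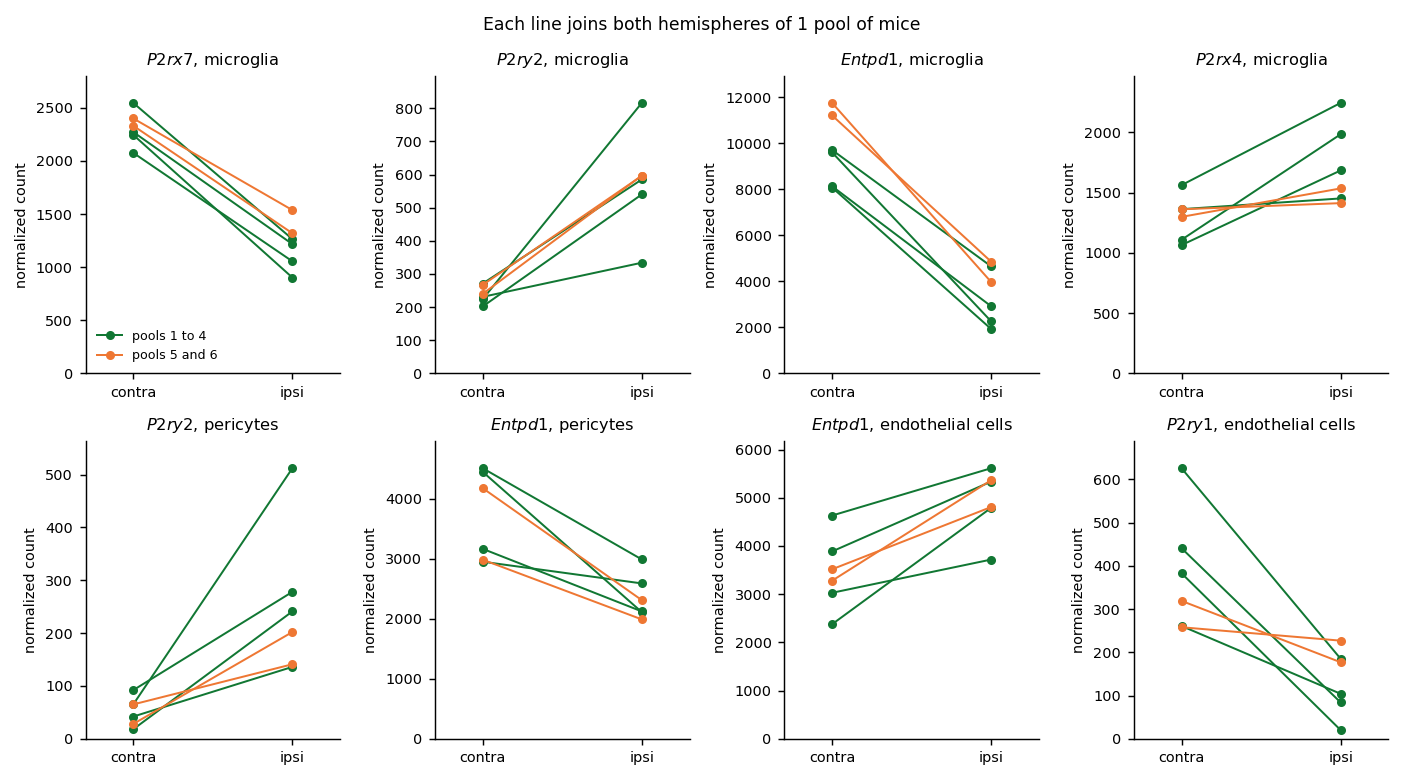
Normalized counts of 5 genes in both hemispheres. Each line joins the contralateral and ipsilateral libraries of 1 replicate number, taken as 1 pool of mice. Pools 1 to 4 are in green and pools 5 and 6 in orange, and all axes start at 0. All 6 lines fall for *P2rx7* and *Entpd1* in MG, *Entpd1* in PC and *P2ry1* in EC, and all 6 rise for *P2ry2* in MG and PC, *P2rx4* in MG and *Entpd1* in EC.

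*P2ry1* had groups apart in endothelial cells, lower after stroke, without passing the test. Its contralateral values in EC ran from 258 through 351 to 626 and its ipsilateral values from 20 through 140.5 to 227, apart in all libraries, as for 2.06% of all genes tested in EC. The log2 fold change was -1.78 (standard error 0.52, adjusted p = 0.158, lower in 6 of 6 pools). The size differed between pools, from 383 to 20 in replicate 1 and from 258 to 227 in replicate 6. In PC, *P2ry1* was at 0 in 1 of 6 contralateral and 3 of 6 ipsilateral libraries (adjusted p = 0.472), and in AC both groups overlapped (adjusted p = 0.971). None of the 10 genes had groups apart in AC, where 0.898% of all genes tested did.

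*P2ry6* was not called in microglia, and its highest values in other cell types lay in libraries with much microglial RNA. In MG it ranged from 3702 to 6274 contralaterally and from 3935 to 5126 ipsilaterally apart from replicate 2, which stood at 619 (log2 fold change -0.51, 95% interval -1.41 to 0.39, adjusted p = 0.452). In ipsilateral PC it was at 125, 682, 1090 and 963 in replicates 1 to 4 and at 17 and 8 in replicates 5 and 6. The microglial level taken at the microglial share of each library would be 155, 419, 765, 665, 7.0 and 5.39. In EC *P2ry6* ranged from 2 to 178 contralaterally and from 15 to 961 ipsilaterally, and in AC from 17 to 219 and from 40 to 489, lowest in replicate 5 or 6 in each of these groups but ipsilateral AC. *Adora3* showed a split between the same pools: it was at 0 in all 12 EC, PC and AC libraries of replicates 5 and 6, and at 66, 87, 175 and 74 in ipsilateral PC of replicates 1 to 4, where the microglial share would give 30.0, 81.0, 148 and 128. Over the 36 EC, PC and AC libraries, *P2ry6* exceeded the value at the microglial share in 19 and *Adora3* in 8. *P2ry2* and *P2rx4* exceeded it in all 36, *Entpd1* in 33 and *P2rx7* in 30. None of the stroke changes of *P2ry6* and *Adora3* in these 3 cell types was called (adjusted p from 0.444 to 0.917), and the part of microglial RNA in them was not tested.

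**Figure D4:**
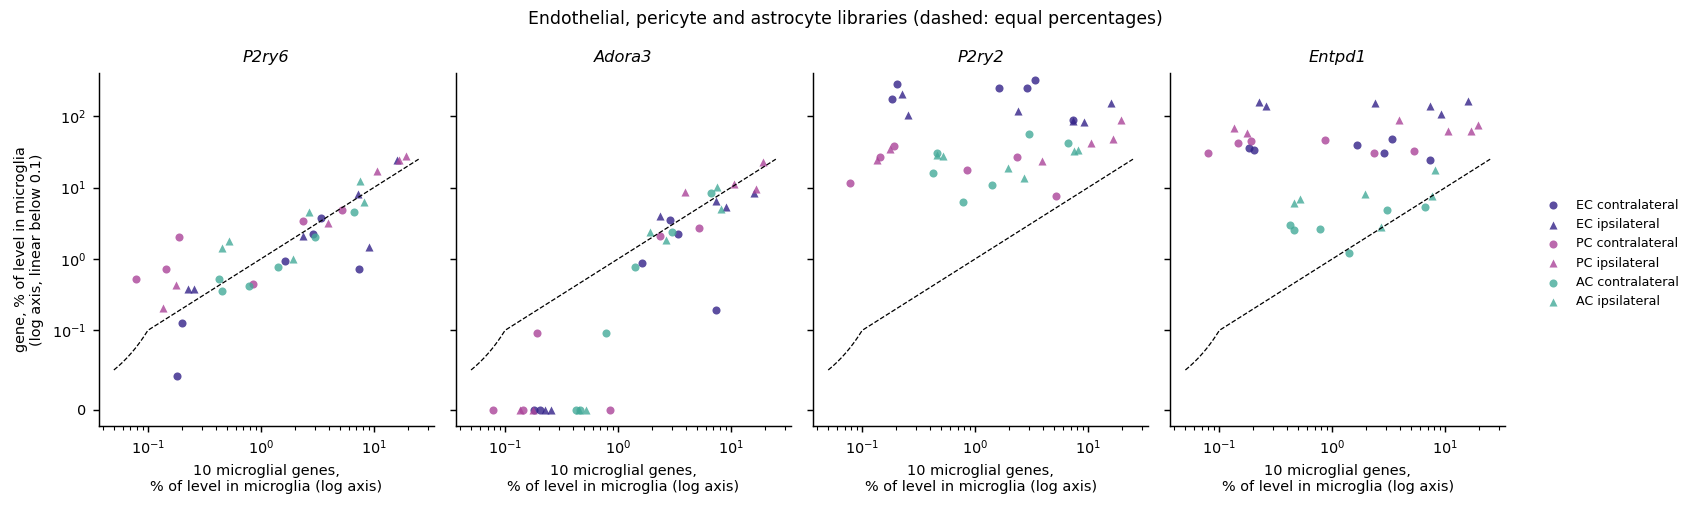
Level of 4 genes in the 36 EC, PC and AC libraries as a percentage of their mean in MG of the same hemisphere, against the same percentage for the sum of 10 microglial genes, on log axes. *P2ry6* lies above the dashed line of equal percentages in 19 of the 36 libraries and *Adora3* in 8. *Adora3* is at 0 in all 12 libraries of replicates 5 and 6. *P2ry2* lies above the line in all 36 libraries and *Entpd1* in 33.

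The adenosine receptors showed no regulated change. In MG, *Adora3* ranged from 734 to 1442 contralaterally and from 363 to 1090 ipsilaterally, lower in 6 of 6 pools with overlapping groups (log2 fold change -0.48, standard error 0.26, adjusted p = 0.25). *Adora1* in AC was at 2266 to 3791 contralaterally and 2463 to 3930 ipsilaterally, with means of 3204 ± 511 and 3264 ± 491 (SD, n = 6 each). Its log2 fold change of 0.03 had a 95% interval from -0.32 to 0.37, which lies within the 1.5-fold threshold on both sides. *Adora2a* in PC was at 190 to 1268 contralaterally and 85 to 839 ipsilaterally, lower in 5 of 6 pools (-0.62, 95% interval -1.92 to 0.67, adjusted p = 0.666). In EC, where *Adora1* ranged from 0 to 56 and from 0 to 119 and *Adora2a* from 0 to 83 and from 6 to 65, the 95% intervals ran from -1.01 to 4.65 and from -1.55 to 3.04 on the log2 scale and no change was detectable at these levels. *Adora1* in PC (adjusted p = 0.982) and MG (adjusted p = 0.649) and *Adora2a* in AC (adjusted p = 0.962) were not called either.

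*Entpd1* fell in microglia, and its change there differed from that in endothelial cells. In MG it ranged from 8085 through 9664.5 to 11764 normalized counts contralaterally and from 1929 through 3445 to 4857 ipsilaterally, without overlap and lower in all 6 pools. The mean fell from 9756 ± 1524 to 3432 ± 1241 (SD, n = 6 each), to 35.2% of the control level, by limma -1.58 on the log2 scale (standard error 0.23, adjusted p = 0.00101), and the joint fit of 48 libraries called it as well (adjusted p = 0.000225). In EC it ranged from 2376 through 3397.5 to 4631 and from 3718 through 5072 to 5613, higher in 6 of 6 pools, with overlapping groups and no call (0.53, standard error 0.19, adjusted p = 0.264). In PC it ranged from 2953 through 3674 to 4513 and from 1991 through 2218 to 2991, lower in 6 of 6 pools and not called (-0.65, standard error 0.16, adjusted p = 0.076). In AC, the cell type with the lowest level, it was at 119 to 514 and 95 to 596 (-0.24, 95% interval -1.14 to 0.66).

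The difference between EC and MG in the change of *Entpd1* was itself tested and amounted to 2.11 on the log2 scale (standard error 0.39, 95% interval 1.32 to 2.91, adjusted p = 0.00763), the only call among the 10 genes in that comparison, where 0.273% of 15003 genes were called (0.787% with the pool as a block). It did not remain past the threshold without replicate 3 (adjusted p = 0.0605), without replicate 6 (0.0691) or with replicates 1 to 4 alone (0.125). With the pool as a block the adjusted p was 7.82e-06, and 3 further differences of *Entpd1* were called, EC minus PC (95% interval 0.39 to 1.97 without the block, adjusted p = 0.0242, 0.167% of all genes called), PC minus MG by 0.93 (0.0255, 1.69%) and AC minus MG by 1.34 (0.00193, 0.767%). Without the block these 3 had adjusted p-values of 0.348, 0.308 and 0.174. Without the block, no other of the 10 genes was called by limma in any of the 6 differences, where 0.0267% of all genes were for EC and PC, 0.06% for EC and AC, 0.00667% for PC and AC, 0.727% for PC and MG and 0.293% for AC and MG. An unadjusted p under 0.05 belonged to 2 of the 10 for EC and PC (7.95% of all genes), 0 for EC and AC (5.45%), 2 for EC and MG (11.0%), 2 for PC and AC (6.2%), 3 for PC and MG (12.7%) and 1 for AC and MG (8.4%). The sum of the 10 microglial genes in MG differed too, ranging from 713427 to 790154 contralaterally and from 393572 to 658746 ipsilaterally. Its ipsilateral median was at 68.8% of the contralateral one, and that of the 4 microglial markers at 53.9%. Of those 4 markers, *Cd68* rose in its mean (19195 to 27664) and the others fell. In PC the 3 smooth muscle genes summed to 304156 to 458465 contralaterally and 139027 to 311889 ipsilaterally (43.9%), and the 4 pericyte markers to 44294 to 92716 and 34058 to 90625 (76.3%), beside a mean of *Entpd1* at 63.5% of the contralateral one. The part of these shifts in the *Entpd1* values was not tested.

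*Nt5e*, the gene of the enzyme that completes the conversion to adenosine, was not called in any cell type. In AC it ranged from 50 to 226 contralaterally and from 146 to 454 ipsilaterally, higher in 4 of 6 pools (log2 fold change 0.95, standard error 0.39, adjusted p = 0.492). In EC it ranged from 0 to 95 and from 2 to 337, higher in 5 of 6 pools and lower in replicate 1 (2.20, standard error 1.26, adjusted p = 0.523). In PC it ranged from 0 to 150 and from 43 to 481 (1.81, adjusted p = 0.451), and in MG it was at 0 in 3 of 6 ipsilateral libraries. The 95% intervals ran from -0.49 to 4.89 in EC and from -0.52 to 4.14 in PC, so no change was told apart from the spread. Single pools ran from -3.94 to 7.75 in EC and from -0.27 to 7.62 in PC on the log2 scale.

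A list of 45 further genes of nucleotide and adenosine signalling gives the surroundings of the 10 genes, and 41 of them were in the table. By limma 0 of 33 tested were regulated in EC, 0 of 33 in AC, 1 of 36 in PC (downwards) and 3 of 31 in MG (1 upwards and 2 downwards), with the backgrounds given above. An unadjusted p under 0.05 belonged to 10 of 33 in EC, where 11.9% of all genes had one, 4 of 33 in AC (9.28%), 13 of 36 in PC (15.4%) and 11 of 31 in MG (28.0%). The median log2 fold change of the list was 0.57 in EC, 0.57 in PC, -0.16 in AC and -0.38 in MG, against -0.03, -0.04, -0.06 and -0.18 over all genes tested. In MG the 2 genes that fell were ADP receptors. *P2ry12*, the receptor that guides microglial processes towards nucleotides, ranged from 18947 to 36074 contralaterally and from 3372 to 16293 ipsilaterally (log2 fold change -1.76, standard error 0.36, adjusted p = 0.00711). *P2ry13* ranged from 16523 to 24077 and from 5665 to 15692 (-1.06, standard error 0.25, adjusted p = 0.0161). Both were lower in 6 of 6 pools with no overlap, and the call of *P2ry13* was lost without replicate 3 (adjusted p = 0.0604) or replicate 4 (0.0573). *Enpp1*, an enzyme that cleaves ATP to AMP and pyrophosphate, rose, from 107 to 266 contralaterally and 288 to 451 ipsilaterally (0.95, standard error 0.27, adjusted p = 0.0335), a call that was lost with the pool as a block (0.0567) and without any single replicate but the second (0.0721 to 0.142). In the joint fit of 48 libraries none of these 3 was called (adjusted p = 0.523, 0.795 and 0.572). In PC, *Nt5c2*, a cytosolic nucleotidase, fell, from 1781 to 2590 contralaterally and 789 to 1205 ipsilaterally (-1.10, standard error 0.15, adjusted p = 0.00637), a call that was lost without replicate 4 (0.0535) or replicate 6 (0.0503).

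By role, none of the 7 inflammasome genes downstream of P2X7 (*Nlrp3*, *Pycard*, *Casp1*, *Il1b*, *Il18*, *Gsdmd* and *Nek7*) was regulated in any cell type, with 2 of 7 in EC, 4 in PC, 0 in AC and 2 in MG at an unadjusted p under 0.05, against the same shares of all genes. In MG the latter 2, named after their values were seen, were *Pycard*, the adaptor gene, at 1626 to 2273 contralaterally and 2117 to 6942 ipsilaterally (log2 fold change 0.59, adjusted p = 0.151, higher in 6 of 6 pools), and *Gsdmd*. The latter, which encodes a pore-forming protein, was at 1252 to 2761 and 933 to 1529 (-0.64, adjusted p = 0.0527, lower in 5 of 6). *Il1b*, the cytokine gene (0.05 in MG, adjusted p = 0.951), and *Nlrp3*, the sensor (-0.64 in MG, adjusted p = 0.417), were named in the same way. So were the following. In EC the 2 were *Casp1* (4.80, limma adjusted p = 0.0767, 0 to 52 and 18 to 243) and *Il1b* (2.57, adjusted p = 0.393), both higher in 6 of 6 pools. In PC the 4 were *Gsdmd* (1.53, adjusted p = 0.0713), *Il1b* (4.60, 0.276), *Nlrp3* (3.40, 0.279) and *Pycard* (1.76, 0.324), all upwards. In ipsilateral PC these 4 ranged from 178 to 770, 1 to 4702, 0 to 231 and 21 to 807, in that order. Microglial RNA in these libraries was at 3.93% to 19.4% of the level in MG in replicates 1 to 4. It was at 0.136% to 0.177% in replicates 5 and 6. The part of microglial, neutrophil and monocyte RNA in the EC and PC values of these inflammasome genes was not tested. Of 12 genes of adenosine uptake and turnover, 11 were tested in each cell type and the single call without the block was that of *Nt5c2*, while with the block *Slc29a3*, an intracellular nucleoside transporter, was called in MG (-0.76, adjusted p = 0.0341 with and 0.0743 without it). The other adenosine receptor, *Adora2b*, and the release channel *Panx1* were not called in any cell type.

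**Figure D5:**
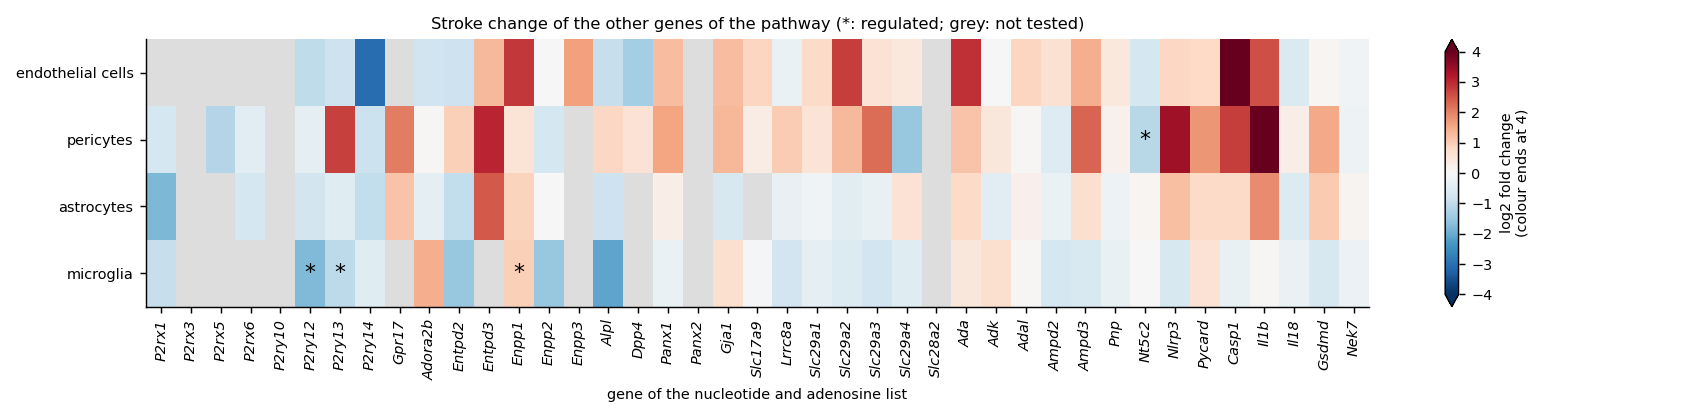
Log2 fold change with stroke of the 41 further pathway genes in 4 cell types (colour, ending at 4 in both directions), with asterisks on the regulated genes and grey where the level was too low to test. The asterisks lie on *P2ry12*, *P2ry13* and *Enpp1* in MG and on *Nt5c2* in PC.

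The genes most like each of the 10 in their pattern over all 48 libraries were sought among 15003 genes by Pearson's r of log2 values, a description in which libraries of a cell type share their level. *P2rx7* was most like *Cln3* (r = 0.94), *Slc29a3* (0.94) and *Abhd15* (0.92), and *P2rx4* most like *Pld3* (0.92). *P2ry6* was followed by *Olfml3* (0.95), *Lgmn* (0.94) and *Adora3* (0.94). *Adora3* was most like *Rasal3* (0.96), *Entpd1* like *Fmnl3* (0.95), *Adora1* like *Kif1a* (0.92), *Adora2a* like *Kirrel* (0.90) and *P2ry2* like *Ankrd33b* (0.89). For *P2ry1* (*Il17rd*, 0.80) and *Nt5e* (*Igsf3*, 0.80) the likeness was lowest.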

How the data were processed

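RNA of 48 pools of sorted cells (4 cell types, 2 hemispheres, 6 replicates) was amplified with a SMART-Seq HT kit and sequenced. The authors trimmed reads with Trimmomatic 0.38, aligned them to GRCm38 with STAR 2.6.1d and counted them on genes with featureCounts 1.6.3, leaving out reads of several genes or places. The deposited values are counts that the authors normalized with DESeq2 1.18.1 and rounded to whole numbers, and they were treated as a score; tests for raw counts were therefore not run. Reads per library were inferred from the spacing of low values, and floors cover counting error only. The table had 0 other columns of sample values.

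Within each cell type, genes with a mean of at least 10 were tested on log2(value + 1) by limma 3.58.1 (trend, R 4.3.3), two-sided, with Benjamini-Hochberg adjustment over all genes tested. Regulated meant an adjusted p of at most 0.05, a change of at least 1.5-fold and values above 10 in all 6 libraries of a group, after the study. Cell types, and differences between their stroke changes, were compared in 1 fit of 48 libraries over 15003 genes. Equally numbered hemispheres were taken to come from the same mice, although the labels give replicate numbers only. Counts of pools rest on this. Their deviations from the group means correlated at a mean r of 0.21 in EC, 0.21 in PC, 0.37 in AC and 0.12 in MG. The lowest r of a pair was 0.02, -0.07, 0.02 and -0.02. For other numbers the mean r was -0.04, -0.04, -0.07 and -0.02. The fit with this replicate block was an alternative, beside other pseudocounts (0.1 and 10), filters, call rules, scaling, a joint fit and omitted replicates. No pair of libraries was identical, and replicates correlated at r = 0.753 to 0.964. The scripts were tested on simulated data, with 100 genes changed at each size, all with means of at least 100. Of changes of 1 on the log2 scale, 17% were called in EC, 27% in PC, 36% in AC and 34% in MG. Of changes of 2, 68%, 74%, 87% and 82% were called. False calls numbered 8, 10, 5 and 1. A result that was not called can therefore hide a 2-fold change. Exon lengths were from GENCODE M21, tables were made with Python 3.11.15, numpy 2.4.6 and pandas 2.3.3, and plots with matplotlib 3.10.9.

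The 10 genes, the pathway list and the marker lists were chosen with earlier results of these data known. Named were the 10 genes, the regulated pathway genes and, for each of the 10, up to 3 genes of the highest Pearson r over 48 libraries; exceptions are given as such.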

Additional observations from a re-analysis of the deposited data

Results flagged for a closer look

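Of 80 groups of 6 libraries (10 genes, 4 cell types, 2 hemispheres), 11 held a library farther from the others than Dixon's 95% limit. Chance gives this in about 1 of 20 groups of normally distributed values. That rate need not hold for these counts, many of which lie near 0, so the 11 are a description only. Among the genes at clear levels, *P2ry6* in ipsilateral MG stood at 619 normalized counts in replicate 2 with the others at 3935 to 5126. *Entpd1* in ipsilateral AC stood at 596 in replicate 2 (others 95 to 277) and *P2rx4* in contralateral EC at 158 in replicate 2 (others 341 to 430). At lower levels, *P2ry6* in ipsilateral EC stood at 961 in replicate 3 (others 15 to 324). In contralateral PC, replicate 2 was apart for *P2rx7* at 270 (others 0 to 44) and for *Adora1* at 176 (others 17 to 59), and in contralateral AC replicate 2 was apart for *Adora3* at 86 (others 0 to 25). Near the floor in MG, *P2ry1* stood at 18 in contralateral replicate 4 (others 0 to 1), *Adora2a* at 8 in contralateral replicate 6 (others 0 to 2), and *Nt5e* at 45 in contralateral replicate 2 (others 0 to 16) and at 101 in ipsilateral replicate 4 (others 0 to 23). Replicate 2 supplied 7 of the 11 libraries.

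The stroke change of *Entpd1* differed between EC and MG by a test of the difference itself, 2.11 on the log2 scale, with EC higher in 6 of 6 pools and MG lower in 6 of 6.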

How the results depend on the processing

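Depth limits the genes under about 10 normalized counts, where 3 reads are worth up to 7.1. No result reversed. Of the counts, 264 values under an alternative lay within 1.5 times of that reported and 28 did not, and of the values of single genes 307 kept their side of the threshold, 33 lost it and 18 gained it. Leaving out 1 replicate gave 0 regulated genes of the 10 in PC each time, 0 to 1 pathway genes in PC (0 without replicate 4 or 6), 0 to 2 in EC (2 without replicate 2), 1 to 4 in MG (1 without replicate 3 or 4), and 0 to 1 of the 10 genes differing between EC and MG (0 without replicate 3 or 6). The joint fit of 48 libraries gave 1 of the 10 genes in MG, 3 pathway genes in EC and 0 in MG. No filter on low values gave 0 of the 10 genes in PC, and a mean of at least 50 gave 6 pathway genes in MG. Replicates 1 to 4 alone gave 0 of the 10 genes in PC, 0 pathway genes in PC and 0 genes differing between EC and MG. Replicates 5 and 6 alone, chosen after seeing the data, gave 0 of the 10 genes in PC, 0 pathway genes in PC, 1 in EC and 1 in MG. With the replicate block, 1 gene (*Entpd1*) differed between EC and PC, 1 between PC and MG and 1 between AC and MG, and the pairing changed no call of a stroke change among the 10 genes. Apart from the number of samples or genes tested, the cause of these differences was not tested.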
